A study of Homo sapiens with 6 samples.

Results

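The 9 genes described here, GABRP, MUC16, VTCN1, FRMD7, SERPINB13, TFAP2A, TFAP2B, TFAP2C and MAGEA4, were grouped as amnion and surface epithelium genes, although FRMD7 and MAGEA4 are better known from other tissues. They were picked by name from the 28092 rows of the deposited table because several had the largest falls in ADPRHL1 knockout cells, so their difference between genotypes is given as a description with no test. RNA was selected with oligo-dT and sequenced from cardiomyocytes made from H9, a widely used line of human embryonic stem cells. There were 3 wild-type and 3 ADPRHL1 knockout samples, all collected within 3 days of re-seeding, and the labels do not say how the knockout was made or from how many clones. ADPRHL1 is a pseudoenzyme related to the ADP-ribosylhydrolases and enriched in heart, and the study asked how its loss affects focal adhesions.

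Amnion is the thin epithelium that encloses the embryo. In primates it forms early from pluripotent epiblast, and BMP signals can drive human pluripotent stem cells to an amnion-like state. The AP-2 transcription factors, here TFAP2A, TFAP2B and TFAP2C, act in amnion, surface ectoderm, trophoblast, neural crest and germ cells. GABRP, the pi subunit of the GABA-A receptor family, and VTCN1, an immune inhibitory ligand of the B7 family, are widely used as amnion markers of human stem cell cultures. Neither is a textbook gene of heart muscle.

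ADPRHL1, the targeted gene, was lower in every knockout library than in any wild-type library. It averaged 80.9 ± 2.41 CPM (counts-per-million, TMM-scaled, with SD, n = 3) in wild type and 6.59 ± 0.893 CPM in knockout. The labels give genotype and no RNA level. Totals ranged from 21179650 to 21405718 estimated counts, so 3 counts stood for about 0.140 CPM. Genotype differences were wide: 57.0% of 19558 genes tested passed edgeR's quasi-likelihood test at a Benjamini-Hochberg adjusted p under 0.05, 28.6% lower and 28.4% higher in knockout. TNNT2, which encodes cardiac troponin T, averaged 1463 ± 70.3 CPM in wild type against 467 ± 20.3 CPM in knockout, and all 17 cardiomyocyte markers fell. The summed level of those 17 markers was 20316 to 20518 CPM in wild type against 5619 to 6048 CPM in knockout. Their part in the lower level of ADPRHL1, a heart-enriched gene, was not tested. Markers of other cells moved in both directions. Of these, 9 of 13 tested fibroblast genes, 8 of 10 endothelial genes and 7 of 8 endoderm genes rose. Of 6 neural genes tested 4 fell and 1 rose, and of 6 pluripotency genes tested 3 fell and 0 rose. Bulk RNA cannot tell fewer cells of a type from less RNA per cell, which holds for each difference below.

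The promoters of the chosen genes are shown for GABRP, which had the highest level of the set, for VTCN1, whose promoter held a match to the AP-2 motif, and for TFAP2A, which encodes an AP-2 factor. Each run is the 250 bases before the start used for the gene, from RefSeq (GRCh38.p14), read 5′ to 3′ on the gene's strand. Capitals mark a match to GCCNNNGGC, a palindromic AP-2 motif that reads the same on both strands.
GABRP, chr5:170783475-170783724, plus strand: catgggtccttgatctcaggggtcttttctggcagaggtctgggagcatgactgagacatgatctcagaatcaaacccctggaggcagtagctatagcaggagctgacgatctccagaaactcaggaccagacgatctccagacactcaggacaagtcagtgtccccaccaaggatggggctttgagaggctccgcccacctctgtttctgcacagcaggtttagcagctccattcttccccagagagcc
VTCN1, chr1:117210928-117211177, minus strand: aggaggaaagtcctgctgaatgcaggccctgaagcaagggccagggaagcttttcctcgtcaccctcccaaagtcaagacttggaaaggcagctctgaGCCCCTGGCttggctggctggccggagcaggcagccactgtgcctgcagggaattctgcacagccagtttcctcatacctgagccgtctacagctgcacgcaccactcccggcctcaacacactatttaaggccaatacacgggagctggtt
TFAP2A, chr6:10419660-10419909, minus strand: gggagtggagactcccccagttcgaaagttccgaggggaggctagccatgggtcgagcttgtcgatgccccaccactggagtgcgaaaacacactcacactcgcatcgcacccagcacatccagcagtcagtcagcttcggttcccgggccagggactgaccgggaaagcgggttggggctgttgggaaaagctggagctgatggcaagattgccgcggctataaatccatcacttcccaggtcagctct
Promoters of 8 of the 9 genes were matched by gene ID, and 1 of these, that of VTCN1, held the motif, with 143 bases between the match and the start. For GABRP and TFAP2B the start used lies inside the annotated span of the gene, so the bases read are also inside it. The motif was found in 19.7% of all 27305 promoters of the same length and in 26.0% of the 13944 that belong to genes tested. A GATA motif, AGATAA on either strand, was found in 9.37% of all promoters, in 5.69% of those of genes tested and in 0 of the 8. The promoters were unlike in base composition, from 38.4% G and C for FRMD7 to 62.4% for MAGEA4, against a median of 58.0% over all promoters. Their CpG pairs numbered from 0 for FRMD7 to 13 for TFAP2A, where the median promoter held 11 and the median promoter of a gene tested held 19. These matches describe letters in a short window and say nothing about binding.

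GABRP had the highest wild-type level of the 9 both in CPM and per transcript length. Its wild-type samples read 57.0, 46.6 and 53.4 CPM, and its knockout samples 0.327, 0.415 and 0.188 CPM. The lowest wild-type library held 989.5 estimated counts and the highest knockout library 8.97, a gap of 110-fold between the closest libraries. Summed counts were 168-fold higher in wild type (95% counting interval 109 to 276, exact binomial). The gene lies on chromosome 5 at 170782720 to 170814047 (GRCh38), and the start used for its promoter lies inside that span.

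MUC16, a large membrane-bound mucin of wet epithelia and mesothelium, split the libraries in the same way. Its wild-type levels were 30.5, 32.3 and 31.8 CPM and its knockout levels 0.234, 0.461 and 0.611 CPM. Knockout libraries held 5, 10 and 13 counts against 646 to 685 in wild type, a ratio of 72.5 (interval 49.997 to 109). GABRP and MUC16 together made up 69.6 to 72.2% of the counts of the 9 genes in each wild-type library and 20.4 to 31.0% in each knockout library. Mesothelium also makes MUC16, and of 10 mesothelial and epicardial markers 5 rose and 2 fell, with a summed level of 300.4 to 315 CPM in wild type against 258 to 299 CPM in knockout. Most of that sum came from KRT19, a keratin gene that is also on the amnion list. It averaged 213 ± 7.90 CPM in wild type against 201 ± 21.4 CPM in knockout and did not pass (-0.09, edgeR adjusted p = 0.326). The part of these markers in the MUC16 values was not tested.

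VTCN1 also split by genotype. It measured 7.09, 8.39 and 7.84 CPM in wild type against 0.280, 0.277 and 0.282 CPM in knockout, and the 3 knockout libraries were nearly equal. The ratio was 26.3 (interval 16.6 to 44.0). FRMD7, a FERM domain gene known in human for congenital nystagmus, measured 6.85, 6.88 and 6.89 CPM in wild type against 0.0467, 0.0922 and 0.0940 CPM in knockout. With 5 counts over the knockout libraries against 437 in wild type, its ratio of 88.5 had a wide interval, 37.6 to 274. The 3 wild-type FRMD7 values had a coefficient of variation of 0.301%, below the 8.29% that counting alone would give at that depth.

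SERPINB13, a squamous epithelial protease inhibitor of the clade B serpins, was near the limit of detection in knockout. Its estimated counts were 56.0, 45.0 and 40.8 in wild type and 1, 0 and 3 in knockout. The ratio was 36.0 (interval 13.7 to 134), and the fitted log2 fold change of -5.04 became -6.27 without knockout replicate 3, which held 3 of the 4 knockout counts. MAGEA4, an X-linked cancer-testis gene that is active in germ cells, stood at 6.05, 5.94 and 4.86 CPM in wild type against 0.0934, 0.323 and 0.282 CPM in knockout. Its ratio was 24.1 (interval 14.4 to 43.5). MAGE genes include close copies between which estimated counts may be divided, so the MAGEA4 level is less certain than its interval says.

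The 3 AP-2 factors had the lowest ratios of the set as point values, that of TFAP2B with a wide interval. TFAP2A stood at 8.98, 9.19 and 9.49 CPM in wild type against 1.21, 0.922 and 0.799 CPM in knockout, a ratio of 9.42 (interval 7.26 to 12.4). TFAP2C stood at 1.89, 1.79 and 1.70 CPM in wild type against 0.420, 0.323 and 0.564 CPM in knockout, a ratio of 4.12 (interval 2.71 to 6.48). TFAP2B was barely detected, with 4, 4 and 10 counts in wild type and 2, 0 and 1 in knockout, and did not pass the filter on low counts. Its ratio of 6.08 had an interval of 1.77 to 32.2. TFAP2A had the most counts left in knockout, supplying 26.4 to 43.9% of the 9 genes' counts there against 7.41 to 8.11% in wild type. Relative to its own wild-type level TFAP2C kept 24.3%, TFAP2B 16.5% and TFAP2A 10.6%. AP-2 genes are also active in neural crest. Of 10 neural crest markers, 3 of 5 tested rose and 2 fell, and FOXD3 and PAX7 were at 0 in all 6 samples. The summed neural crest level was 161 to 167 CPM in wild type against 192 to 227 CPM in knockout, and its part in the AP-2 values was not tested.

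**Figure D1:**
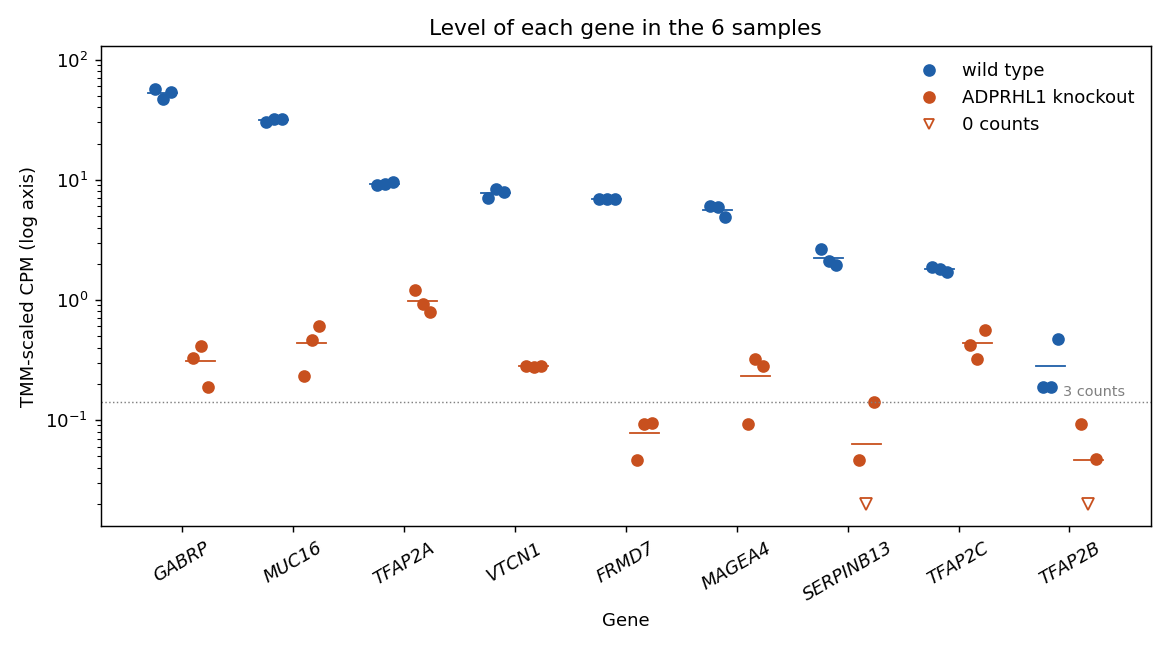
TMM-scaled CPM of the 9 genes on a log axis, with 1 point per sample, a bar at each group mean, open triangles for libraries with 0 counts and a dotted line at the level of 3 counts. For each gene the 3 wild-type points lie above the 3 knockout points, from 57.0 CPM for GABRP down to 0.188 CPM for TFAP2B in wild type.

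For each of the 9 genes every knockout value lay below every wild-type value, an arrangement seen in 32.5% of all genes tested, while in 31.9% every knockout value lay above. The genes were chosen on this contrast, so nothing is read from that count. Of the 9 genes, 8 passed the low-count filter. Among the 16844 genes tested with a wild-type mean of at least 1 CPM, fitted falls ranked 3 for GABRP, 4 for FRMD7, 5 for MUC16, 8 for SERPINB13, 9 for VTCN1 and 10 for MAGEA4. TFAP2A ranked 43 and TFAP2C 169 on the same list.

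**Figure D2:**
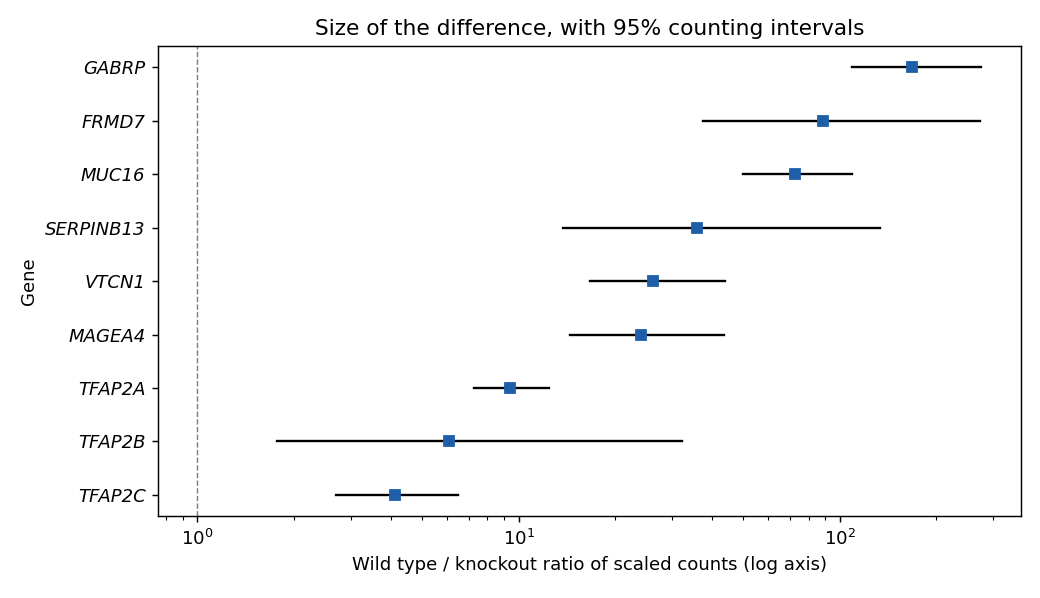
Ratio of wild-type to knockout counts, scaled by effective library size and summed over 3 libraries a group, on a log axis with exact 95% intervals that cover counting error only. Ratios run from 4.12 for TFAP2C to 168 for GABRP, and the interval of TFAP2B, from 1.77 to 32.2, is the widest on this axis.

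As a description, ratios ran from 4.12 for TFAP2C to 168 for GABRP. Most neighbours in this order had overlapping intervals. That of SERPINB13 overlapped those of GABRP, FRMD7, MUC16, VTCN1 and MAGEA4, and that of FRMD7 overlapped those of GABRP, MUC16, SERPINB13, VTCN1 and MAGEA4. The interval of TFAP2B overlapped those of TFAP2A, TFAP2C, SERPINB13, MAGEA4 and VTCN1. The intervals cover counting error and leave out variation between samples, so they do not rank the genes.

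Levels of different genes are compared per transcript length, in FPKM as deposited. In wild type GABRP averaged 16.5 FPKM, above 86.3% of the rows of the table, followed by MAGEA4 at 3.24, VTCN1 at 2.97, MUC16 at 2.70, TFAP2A at 2.54, FRMD7 at 2.02, TFAP2C at 0.637, SERPINB13 at 0.620 and TFAP2B at 0.0467 FPKM. TNNT2 averaged 1254 FPKM in the same samples. VTCN1 and MUC16 overlapped across wild-type libraries on this scale (2.69 to 3.19 against 2.57 to 2.82 FPKM), as did MUC16 and TFAP2A (2.48 to 2.59 FPKM), and MAGEA4 (2.81 to 3.50 FPKM) overlapped with VTCN1 and MUC16. TFAP2C (0.590 to 0.670 FPKM) and SERPINB13 (0.540 to 0.720 FPKM) also overlapped. In knockout the order changed, with TFAP2A highest at 0.313 FPKM and GABRP at 0.113 FPKM. The place of MUC16 depends on the length used: the deposited values imply 11598 ± 786 bases in wild type (SD, n = 3), while its longest GENCODE transcript has 43816 bases.

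The wild-type libraries held the set at similar levels. Summed over the 9 genes they reached 121, 113 and 118 CPM, and the knockout libraries 2.76, 2.81 and 3.01 CPM. No wild-type replicate stood apart: replicate 1 was highest for 4 genes and lowest for 4, replicate 2 highest for 2 and lowest for 2, and replicate 3 highest for 3 and lowest for 3. GABRP varied by 10.04% between wild-type libraries, more than the 3.00% of counting alone, whereas FRMD7, MUC16 (2.85%), TFAP2A (2.79%) and TFAP2C (5.32%) varied by less than counting would give.

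The chosen genes lie on 7 chromosomes and do not form a cluster. TFAP2A (10396677 to 10419659) and TFAP2B (50818355 to 50847619) are both on chromosome 6, and FRMD7 (132076990 to 132128020) and MAGEA4 (151912474 to 151925170) are both on X. VTCN1 is on chromosome 1 (117143587 to 117210927), SERPINB13 on 18 (63587343 to 63599192), MUC16 on 19 (8848844 to 9065751) and TFAP2C on 20 (56629306 to 56639283), all in RefSeq on GRCh38. Antisense genes are annotated over GABRP, TFAP2A and MAGEA4 in GENCODE. No source used here says whether strand was kept, so reads of those partners cannot be told apart from reads of the genes themselves.

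Other genes of amnion moved in both directions. Their sizes are not compared with those of the chosen set, which was picked for its falls. ISL1, a transcription factor of amnion and of heart progenitors, averaged 25.9 ± 2.10 CPM in wild type against 7.16 ± 0.141 CPM in knockout (log2 fold change -1.86, SE 0.0891, edgeR adjusted p = 3.28e-09). GATA3, a regulator of amnion and trophoblast, averaged 21.1 ± 0.719 CPM and 6.65 ± 0.751 CPM (-1.67, SE 0.0986, adjusted p = 2.36e-08), and HAND1, shared by amnion and heart, 136 ± 9.05 CPM and 52.6 ± 3.24 CPM (-1.37, SE 0.0633, adjusted p = 2.21e-09). In each of these 3 genes the lowest wild-type library lay above the highest knockout library. IGFBP3, a carrier of insulin-like growth factors, rose from 349.6 ± 14.05 CPM to 1028 ± 13.8 CPM (1.56), and the potassium channel gene KCNMA1 (1.01) and S100A10 (0.38) rose as well.

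Of 24 amnion genes tested, 13 fell, 4 rose and 7 did not pass, with a median log2 fold change of -0.19 where the median of all genes tested was 0.0012. The 13 fallers are 54.2% of the list beside 28.6% of all genes. Fallers of the list numbered 10 without wild-type replicate 1, 2 or 3 and without knockout replicate 1 or 2. Without knockout replicate 3 they numbered 14. Fallers also known from heart or vessel development include ISL1, HAND1, TBX3 and MEIS1, and others of the 13 may be too. GATA2, also known from there, did not pass. The 17 cardiomyocyte markers fell in the same samples (median -1.70), and their part in these falls was not tested.

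KRT7, BMP4, WNT6 and CDX2, which are used with amnion or its induction, gave small differences or did not pass. KRT7, a keratin of amnion and simple epithelia, averaged 82.1 ± 3.61 CPM in wild type against 79.4 ± 11.6 CPM in knockout (-0.05, adjusted p = 0.690), although it passed without knockout replicate 3 (-0.18, adjusted p = 0.0171), within a range of 0.0171 to 0.979 over alternatives. BMP4, the growth factor used to induce amnion-like cells, averaged 19.8 ± 1.08 CPM and 17.1 ± 1.41 CPM (-0.21, adjusted p = 0.0470), and its call ended under 11 of 15 alternatives (adjusted p from 0.0162 to 0.141). Among these were the fits without wild-type replicate 2 (0.114) or 3 (0.126) and without knockout replicate 1 (0.115) or 2 (0.141). WNT6 stood at 1.09 ± 0.124 CPM and 0.636 ± 0.259 CPM and did not pass (-0.77, adjusted p = 0.101), except without knockout replicate 2 (-1.14, adjusted p = 0.0409). CDX2, at 0.661 ± 0.125 CPM and 1.03 ± 0.387 CPM, did not pass (0.63, adjusted p = 0.188).

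Genes of surface and stratified epithelium fell more often than they rose. CDH3, which encodes P-cadherin, averaged 118 ± 2.28 CPM in wild type against 28.1 ± 2.43 CPM in knockout (-2.07, SE 0.0629, adjusted p = 6.41e-11). DSG3, a desmosomal cadherin of stratified epithelium, averaged 7.72 ± 1.27 CPM and 1.601 ± 0.178 CPM (-2.27, SE 0.181, adjusted p = 4.16e-07), and the desmosome-linked gene PERP fell by 0.96 on the log2 scale. LAMB3 (1.85), which encodes a chain of an epithelial laminin, rose, as did the epithelial adhesion gene EPCAM (0.29). Knockout replicate 3 was the highest library for LAMB3 at 80.6 CPM, beside 55.8 and 53.2 CPM in the other two.

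Of 30 surface epithelium genes tested, 20 fell, 5 rose and 5 did not pass (median -0.88), so fallers made up 66.7% of the list beside 28.6% of all genes. The summed level of the list was 766 to 844 CPM in wild type against 495 to 636 CPM in knockout. TP63, a master regulator of stratified epithelium that is also on the amnion list, was not among the fallers: it averaged 3.48 ± 0.149 CPM in wild type against 4.77 ± 0.552 CPM in knockout (0.45, adjusted p = 0.0268). That call ended under 6 of 13 alternatives (adjusted p from 0.0210 to 0.143), including the fits without wild-type replicate 1 (0.0914), 2 (0.0627) or 3 (0.0551) and without knockout replicate 2 (0.0971). Without wild-type replicate 1 the risers of the list numbered 3. Both lists were chosen with earlier results of these data known, so their counts are not independent evidence of a direction.

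**Figure D3:**
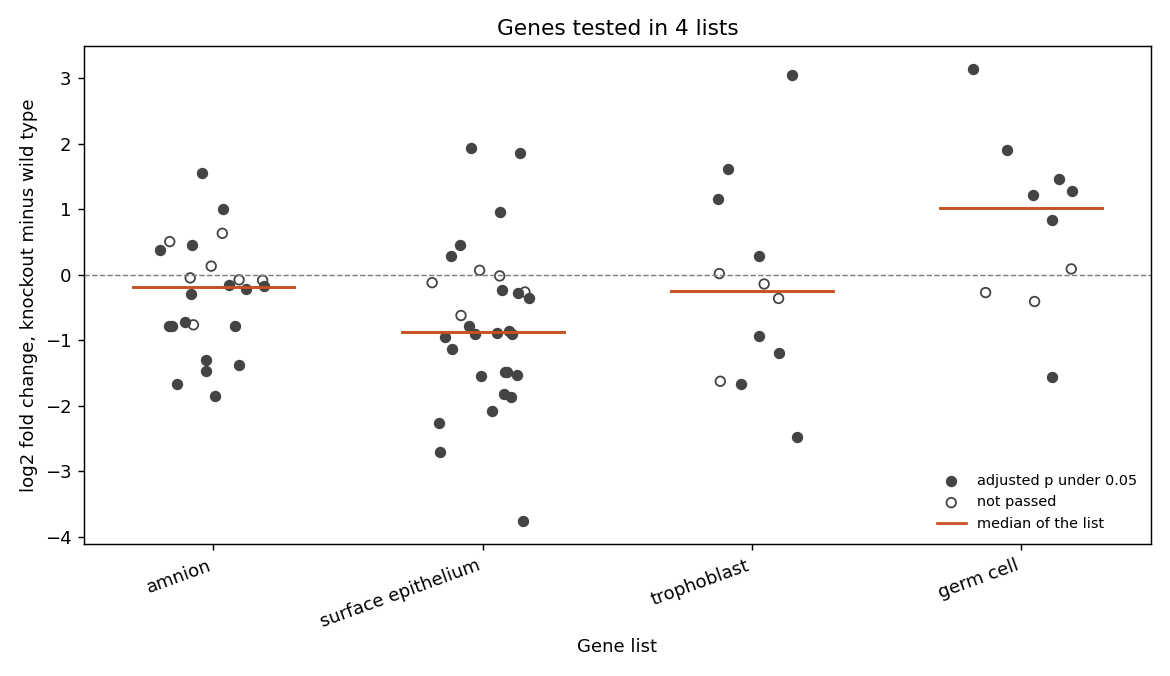
Log2 fold change, knockout minus wild type, of each gene tested in 4 lists. Filled points passed at an adjusted p under 0.05, orange bars mark list medians (-0.19 for amnion, -0.88 for surface epithelium, -0.25 for trophoblast and 1.02 for germ cell) and the dashed line marks the median of all genes tested.

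Trophoblast shares GATA3 and TFAP2C with amnion. VGLL1, a cofactor of TEAD factors in trophoblast, averaged 3.74 ± 0.283 CPM in wild type against 0.668 ± 0.0646 CPM in knockout (-2.48, SE 0.232, adjusted p = 1.79e-06). CYP19A1, the aromatase gene, rose from 0.724 ± 0.192 CPM to 6.04 ± 0.349 CPM (3.05, SE 0.217, adjusted p = 1.41e-07), and SDC1 (1.16) and TEAD4 (0.29) rose. The 12 trophoblast genes tested held 4 fallers, 4 risers and 4 that did not pass, or 33.3% in each direction, near the 28.6% lower and 28.4% higher of all genes. The hormone subunit genes CGA, CGB3 and CGB5 did not pass the low-count filter, with at most 6.20 counts in a library.

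SOX17, a regulator of germ cells, endothelium and endoderm, averaged 3.96 ± 0.125 CPM in wild type against 35.1 ± 1.83 CPM in knockout (3.15), and KLF4 (1.21) and TFCP2L1 (1.91) rose. SOX15 fell by 1.56 on the log2 scale. The 10 germ cell genes tested, of 15 listed, held 6 risers, 1 faller and 3 that did not pass (median 1.02). Risers were thus 60.0% of those tested beside 28.4% of all genes. SOX17 is also one of the endothelial and endoderm markers, which rose in the same samples (medians 1.39 and 1.57). Their part in this rise was not tested. DPPA3, DAZL, PRAME and UTF1 did not pass the low-count filter, with at most 4.29 counts in a library. DDX4 was tested and did not pass (-0.27, edgeR adjusted p = 0.570).

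Other members of the families to which the chosen genes belong did not share their falls as a group. Of 54 such genes tested, 19 fell, 20 rose and 15 did not pass, with a median log2 fold change of 0.047. Fallers were 35.2% and risers 37.0% of these genes, beside 28.6% and 28.4% of all genes.

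The GABA-A receptor family of GABRP was the family with the most fallers, 9 of 12 tested, with 1 riser. GABRA2, an alpha subunit gene, averaged 42.2 ± 1.41 CPM in wild type against 7.81 ± 0.380 CPM in knockout (-2.43, SE 0.0739, adjusted p = 6.47e-11), and the alpha subunit gene GABRA4 averaged 4.28 ± 0.215 CPM and 0.836 ± 0.389 CPM (-2.34). GABRG3, a gamma subunit gene, rose but at a low level, from 0.236 ± 0.0947 CPM to 0.901 ± 0.0624 CPM (1.91).

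Transmembrane mucin genes, the family of MUC16, divided evenly, with 3 of 8 lower and 3 higher. MUC15 held 43 counts over the wild-type libraries and 1 over the knockout libraries, a ratio of 43.5 with an interval of 7.41 to 1760 in which that 1 count, in knockout replicate 1, decides the size. MUC4 fell from 5.25 ± 0.620 CPM to 1.52 ± 0.617 CPM (-1.78), while MUC17 (1.69) and MUC12 (2.74) rose. In the B7 family of VTCN1, 4 of 8 rose, including CD276 from 124 ± 4.08 CPM to 275 ± 37.6 CPM (1.15) and PDCD1LG2 (0.90), and VSIR fell by 0.71 on the log2 scale.

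Among FERM domain relatives of FRMD7, 5 of 8 rose, including FRMD6 (1.16) and FRMD8 (0.94), and FRMD5 (-0.67) and FRMD4B (-0.44) fell. Of 7 other clade B serpins tested, 5 were higher in knockout, including SERPINB8 (0.86) and SERPINB2 (0.59). The 2 that did not pass, SERPINB5 (-0.58) and SERPINB7 (-0.41), had fold changes of the same sign as SERPINB13. The 5 other serpin genes did not pass the low-count filter and reached at most 8 counts in a library. In the MAGE family 4 of 10 fell, led by the near-identical pair MAGEA2B (-1.25) and MAGEA2 (-1.18), whose counts may be divided between copies. MAGED2 rose by 0.21 (adjusted p = 0.0205), a call that ended without wild-type replicate 1 (0.0840), 2 (0.0633) or 3 (0.0626) and without knockout replicate 1 (0.0794) or 3 (0.0740), within a range of 3.51e-04 to 0.0840.

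**Figure D4:**
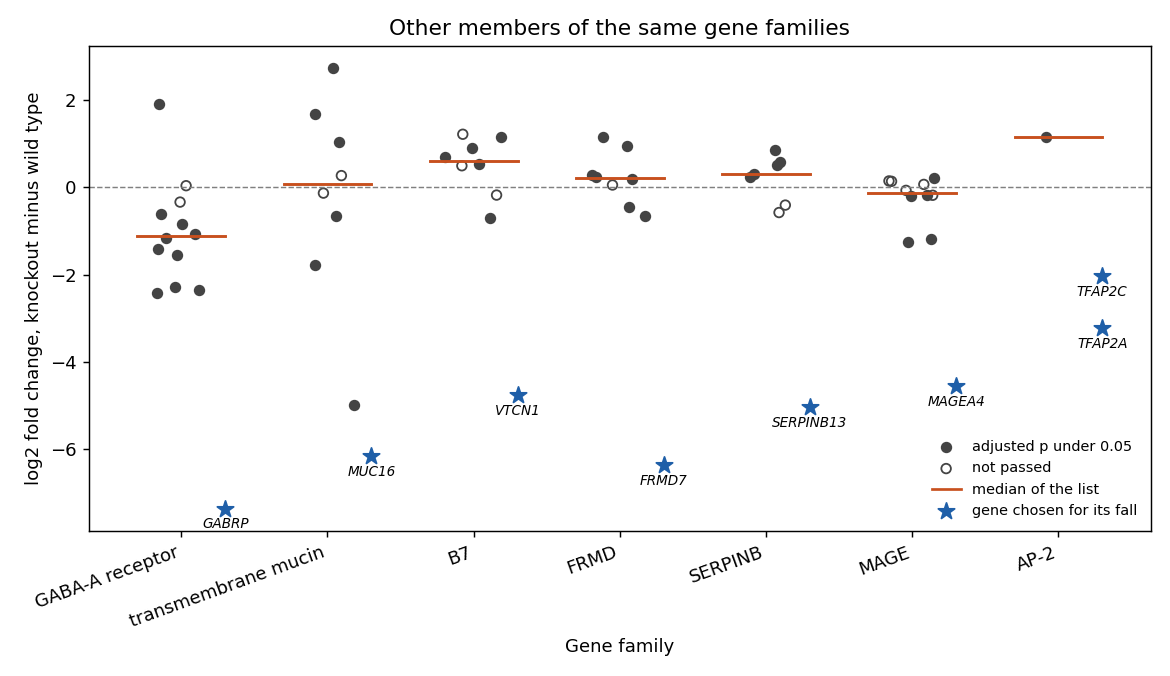
Log2 fold change, knockout minus wild type, of the genes tested in 7 families, with filled points for an adjusted p under 0.05 and orange bars at family medians. Blue stars are the genes chosen for their falls, from -7.37 for GABRP to -2.03 for TFAP2C. Because of that choice, nothing is read from their place below every other point of their families.

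Of the remaining AP-2 genes, TFAP2E was the only one tested, and TFAP2D did not pass the filter, with at most 2 counts in a library. TFAP2E averaged 0.724 ± 0.349 CPM in wild type against 1.63 ± 0.367 CPM in knockout (1.16, adjusted p = 0.0229). Its call ended without wild-type replicate 2 (0.0784), without knockout replicate 2 (0.0982) or 3 (0.0513), and in DESeq2 (0.0641), within a range of 0.0146 to 0.0982. Of 5 AP-2 cofactor genes, the coactivator gene CITED1 (1.38) and the AP-2 inhibitor gene KCTD15 (0.43) rose and the inhibitor gene KCTD1 (-0.49) fell. CITED2 averaged 186 ± 7.92 CPM and 170.4 ± 5.47 CPM (-0.12, adjusted p = 0.0480), a call that ended under 11 of 15 alternatives (adjusted p from 0.0222 to 0.156), among them the fits without wild-type replicate 1 (0.156) or 2 (0.105) and without knockout replicate 2 (0.0629) or 3 (0.0996).

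The genes whose pattern over the 6 samples was most like the mean of the chosen set were led by 2 sarcomere genes. Likeness was the distance between log2(CPM + 1) values centred on each gene's mean. The nearest were MYH7, the beta myosin heavy chain (distance 0.0603), the Z-disc gene LDB3 (0.0788), the basement membrane gene FREM2 (0.135), the kinase anchoring gene SPHKAP (0.204), the M-band gene MYOM1 (0.238), the asparaginase gene ASPG (0.252), the chordin-like gene CHRDL2 (0.281) and the metalloprotease gene ADAM28 (0.283). Their log2 fold changes ran from -2.81 for ADAM28 to -2.42 for MYOM1. The chosen genes stood farther from their own mean, at 0.304 for VTCN1 to 3.41 for GABRP. The measure mostly follows the size of the difference, which on this scale is compressed for genes of low level.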

How the data were processed

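The authors deposited 1 table that gives each gene, for each sample, a number of reads and a second expression measure. The reads are treated as estimated counts from the deposited values, of which 11.9 to 13.0% above 0 were whole. The second measure is read as FPKM from the deposited values: its header states no unit. Count over value then gives 1715 to 11598 bases for the chosen genes in wild type, which for FRMD7, SERPINB13 and TFAP2B is above the longest GENCODE transcript. Per the submitters' processing notes the build is hg38. How reads were aligned, counted and annotated is not given in the sources used here. Symbols came from RefSeq by Entrez ID (23433 of 28092 rows).

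Rounded counts passed filterByExpr (minimum count 10 and a total of at least 15), TMM scaling and the robust quasi-likelihood test of edgeR 4.0.16 (R 4.3.3) for genotype alone. Adjustment was by Benjamini-Hochberg over 19558 genes. An approximate SE was computed from each F statistic. Ratios of the chosen genes use summed counts with exact 95% binomial intervals, which cover counting error only. The fit was tested on simulated counts. Nothing in the labels describes the replicates as separate cultures. A p-value here therefore reflects the spread between these samples alone, which may be technical. Replicates of a group differed by more than counting error (chi-square per degree of freedom 3.37 to 6.81). Reads divided between gene copies can raise that value, so it does not settle whether the replicates were separate libraries.

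The chosen genes, the lists and the tests were selected with earlier results of these data known. Genes were named by rule: in the 4 tissue lists the 3 fallers and 3 risers of smallest p and 8 fixed genes, in each family and among AP-2 cofactors the 2 called genes of largest fold in each direction, and the 8 genes most like the mean pattern. Results for 2 of the genes so named are not reported here. Alternatives were RLE and total-count scaling, DESeq2 1.42.0, other count filters, the replicate number as a block, each sample left out, rows with a symbol only, and limma 3.58.1 on log2(FPKM + 1) and log2(FPKM + 0.1) keeping genes that reached 1 FPKM in 3 samples.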

Additional observations from a re-analysis of the deposited data

How the results depend on the processing

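The log2 fold changes of the 8 chosen genes that passed the low-count filter were below 0 under each alternative that gave a value, with GABRP between -7.64 and -3.97, FRMD7 between -6.51 and -1.57 and TFAP2C between -2.26 and -1.86. For GABRP and FRMD7 the values nearest 0 came from log2(FPKM + 1), whose pseudocount compresses low levels. TFAP2B could not be fitted after the filter. Of 180 counts of genes under alternatives, 169 stayed within 1.5 times the main count. With DESeq2 the surface epithelium list gave 3 risers. On log2(FPKM + 1) and on log2(FPKM + 0.1), where fewer genes were tested, that list gave 3 risers, the germ cell list 2 risers, and the family genes 12 fallers and 12 risers, and on log2(FPKM + 0.1) the surface epithelium list gave 13 fallers. Leaving out 1 replicate gave 3 to 5 risers in the surface epithelium list and 10 to 14 fallers in the amnion list. KRT7 turned to 0.018 without knockout replicate 2 and passed at -0.18 without knockout replicate 3. With the replicate block the amnion list gave 10 fallers and all genes gave 5412 fallers and 5290 risers. Deviations of same-numbered samples correlated at 0.0225, -0.00806 and -0.0135, so the numbers are shared in name only. Depth limits FRMD7, SERPINB13 and TFAP2B most, since their knockout libraries held 3 counts or fewer.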

Other observations

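Genes of cornified epithelium stood beside the chosen genes among the largest falls, and are named here after their values were seen. KRT1, a keratin of the upper epidermis, measured 3.12, 2.36 and 1.98 CPM in wild type against 0 counts in each knockout library, at least 17.6-fold lower against a floor of 3 counts per library. IVL, the involucrin gene of the cornified envelope, averaged 1.04 CPM in wild type against 0.0461 CPM in knockout, and LYPD3, a surface protein of stratified epithelium, averaged 12.5 CPM and 0.716 CPM. The keratin genes KRT5 (-3.76) and KRT6A (-2.70), both on the surface epithelium list, were lower in every knockout library than in any wild-type library.

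Among 10 mesothelial and epicardial markers the 5 risers were TBX18 (1.596), ALDH1A2 (1.19), UPK3B (0.58), CALB2 (0.40) and BNC1 (0.34), and the 2 fallers LRRN4 (-2.36) and ITLN1 (-1.93). MSLN, which encodes a binding partner of MUC16, stood at 2.84, 1.70 and 1.98 CPM in wild type against 2.20, 2.58 and 3.38 CPM in knockout and did not pass (0.32, edgeR adjusted p = 0.294).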
